A study of Mus musculus with 10 samples.

Results

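Connexins are the proteins that build gap junctions, and 8 connexin genes were examined here in the first pharyngeal arch (PA1), the embryonic tissue that forms the upper and lower jaw. The members were chosen by gene symbol and fall into 3 classes by the tissue in which each gene is best known. The epithelial class holds the beta connexins Gjb1, Gjb2, Gjb5 and Gjb6. The mesenchymal class holds Gja1 and Gjc1, and the vascular class holds Gja4 and Gja5. These 8 are among the 20 connexin genes, and the 22114 protein-coding genes, of the count table. The PA1s came from 10 male mouse embryos of a C57BL/6 background (C57BL/6J in the methods of the study) at E10.5, a stage given in days after mating. Of these, 5 were wild-type (Grhl2+/+) and 5 were Grhl2-/-, homozygous for a null allele of the transcription factor gene Grhl2 kept by crossing heterozygotes, and no other allele or treatment was given for either group. Grhl2 is an epithelial gene, but each library was made from a whole arch, in which epithelium is a thin sheet over mesenchyme, vessels, nerve and blood. The comparison asks how the connexins of each tissue differed in level between arches with and without Grhl2.

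A connexin crosses the membrane repeatedly, and connexins join into a ring called a connexon. Connexons of neighbouring cells dock to make a channel that lets ions and small metabolites such as calcium, cyclic nucleotides and inositol phosphates pass from cell to cell. Which connexins a cell makes sets which partners it can dock with and what its channels let through. In the developing face, Gja1 (connexin 43) is used by neural crest cells, mesenchyme and later bone, and its mutation causes a craniofacial syndrome in people. Gja4 (connexin 37) and Gja5 (connexin 40) belong to arterial endothelium, and Gja5 also to the atria and conduction system of the heart. Gjb2 (connexin 26) and Gjb6 (connexin 30) are made together in epidermis and inner ear, and are deafness genes.

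Connexins are a family of similar genes, so the start of the coding sequence is shown for 7 of them to let the classes be compared by eye and to show how far reads of 50 bases can tell members apart. These are the first 50 coding bases of the principal transcript in GENCODE release M21 on GRCm38, with the start codon in capitals.
Gja1: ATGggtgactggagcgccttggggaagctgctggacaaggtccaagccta
Gja5: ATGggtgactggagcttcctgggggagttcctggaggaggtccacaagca
Gjc1: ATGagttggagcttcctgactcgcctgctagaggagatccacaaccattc
Gjb1: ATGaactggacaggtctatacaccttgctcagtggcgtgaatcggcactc
Gjb2: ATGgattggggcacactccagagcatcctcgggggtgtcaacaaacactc
Gjb5: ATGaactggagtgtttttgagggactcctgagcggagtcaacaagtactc
Gjb6: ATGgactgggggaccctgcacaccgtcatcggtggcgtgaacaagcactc
Of the sequences shown, Gjb2 and Gjb6 shared the most bases, at 38 of 50, and Gja1 and Gja5 shared 37. The fewest were shared by Gja5 and Gjb1, at 13 of 50. Over whole coding sequences, Gjb2 and Gjb6 were identical at 65.5% of aligned positions and Gjb2 and Gjc1 at 35.2%. The longest identical run in any of the 28 alignments was 26 bases, shorter than a read. No stretch of 50 bases in the transcripts of Gja4, Gjb1, Gjb2, Gjb5 or Gjb6 was found in a transcript of another gene. For Gja5 the share found elsewhere was 13.2% over all its transcripts, all of it in Zfp697, and 0 of 3060 stretches in the principal transcript. An exon of Gja5 also overlaps Gpr89 on the opposite strand, and whether reads were counted by strand is not stated in the sources used here, so Gja5 carries this uncertainty.

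Several members are neighbours in the genome. On GRCm38, Gjb2 (chr14:57098600-57104702) and Gjb6 (chr14:57123303-57133611) lie on the minus strand with 18.6 kb between them. Gja4 (chr4:127311421-127314039) and Gjb5 (chr4:127354809-127358181) lie on the minus strand with 40.8 kb between them. The remaining members lie on other chromosomes, with Gja1 at chr10:56377330-56402513 and Gjc1 at chr11:102799579-102819700. Gja5 spans chr3:96904693-97077416 and Gjb1 spans chrX:101376378-101385629.

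Between 22188454 and 28801378 reads per arch were counted, so that 3 reads stood for 0.104 to 0.136 CPM (reads scaled to the size of the library) in an arch, a limit that covers counting error only. In wild-type arches Grhl2 itself was at 35.6 ± 3.29 CPM (SD, n = 5), and in Grhl2-/- arches at 4.53 ± 1.45 CPM (n = 5), with no overlap. The ectomesenchyme genes that mark this tissue were abundant in every arch, with a summed level of 1871 to 2425 CPM in wild-type and 1658 to 1920 CPM in Grhl2-/- arches. Wild-type arches 1 and 2 stood apart in sensory neuron transcripts, whose summed level was 49.8 and 42.0 CPM there and 350 to 1356 CPM in the other 8 arches. The log2 fold changes of the 7 tested members, 3 of the ratios between genes and some of the relations with marker lists are therefore also given without these 2 arches.

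Of the 8 members, 7 had at least 10 reads in at least 1 arch and were tested, and Gjb1 was not. None of the 7 passed a false discovery rate (FDR) of 0.01 in limma-voom, or 0.05, in either direction, and edgeR and DESeq2 at FDR 0.01 also called 0. Among all 14561 genes tested, 1.09% were called lower and 0.879% higher in Grhl2-/- arches at FDR 0.01, and 3.87% lower and 3.84% higher at FDR 0.05. At an unadjusted p below 0.05, Gjb2 and Gjb6 were lower and Gja5 was higher, which is 3 of 7, against 14.3% lower and 14.2% higher among all genes. In none of the 7 did the values of the 2 genotypes stand wholly apart, whereas this held for 4.66% of all genes with Grhl2-/- lower and 4.22% with Grhl2-/- higher. The median log2 fold change of the 7 was -0.05, against 0.01 over all genes. The members therefore gave no call, and what follows describes their levels, their spread and the intervals within which a difference could lie. The count of called members was also 0 when wild-type arches 1 and 2 were left out.

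**Figure D1:**
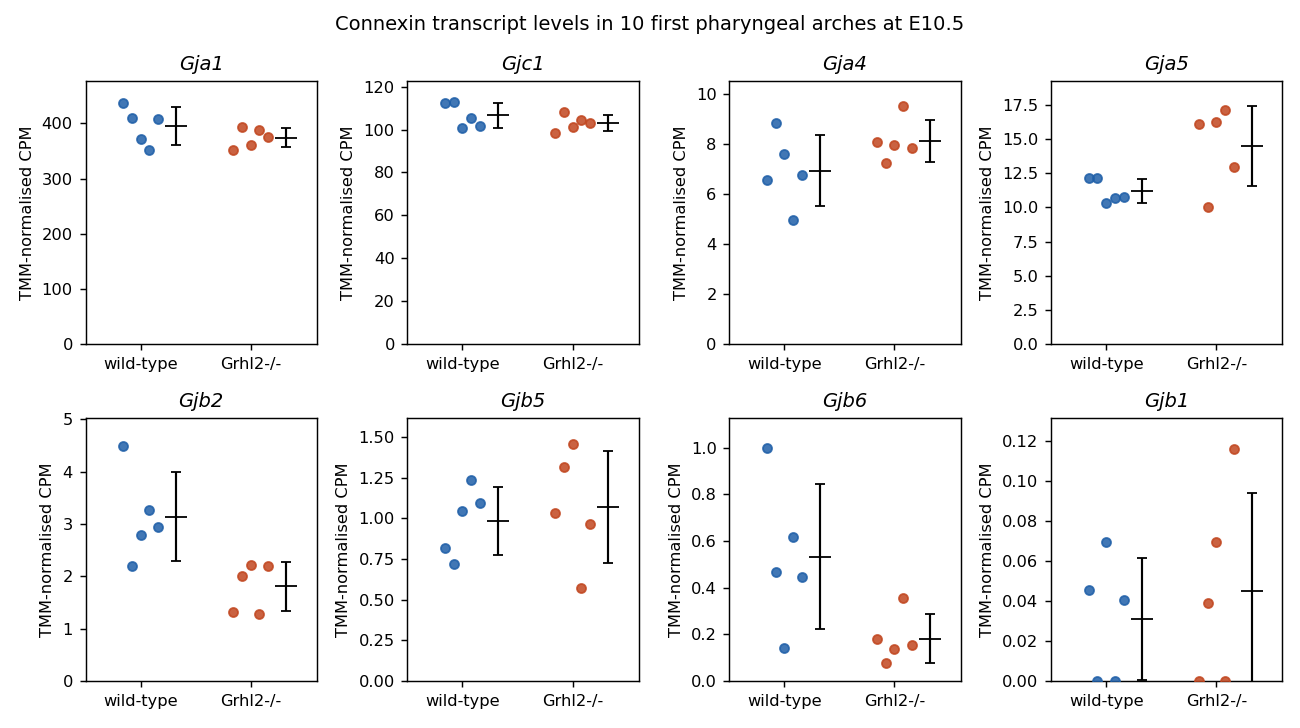
Each panel plots 1 connexin, with TMM-normalised CPM on the y axis and 5 wild-type (blue) and 5 Grhl2-/- (orange) arches as points in label order; the bar beside each group is the mean ± SD, and y axes start at 0 and differ between panels. Groups overlap in every panel, with Gjb2 and Gjb6 leaning lower and Gja5 higher in Grhl2-/- arches.

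The mesenchymal connexins were the most abundant members, and neither differed detectably between genotypes. Gja1 was at 437, 410.4, 371, 351 and 407 CPM in wild-type arches 1 to 5. In Grhl2-/- arches 1 to 5 it was at 352, 394, 361, 388 and 375 CPM, all inside the wild-type range. The means were 396 ± 34.0 and 374 ± 17.5 CPM, with SD over 5 arches. The log2 fold change was -0.08 (95% confidence interval -0.20 to 0.05, limma-voom FDR = 0.406). The data thus place Gja1 in Grhl2-/- arches at between 0.868 and 1.04 times its wild-type level.

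Gjc1 (connexin 45), which is known from early heart and mesenchyme, was at 112, 113, 101, 105 and 102 CPM in wild-type arches 1 to 5. The Grhl2-/- arches were at 98.2, 108, 101, 104 and 103 CPM, and only arch 1 fell outside the wild-type range, below it. Its log2 fold change was -0.05 with an interval of -0.15 to 0.05 (limma-voom FDR = 0.490). Without wild-type arches 1 and 2, the log2 fold changes were -0.02 for Gja1 and -0.01 for Gjc1.

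Beside these levels, Msx1, a homeobox gene of the ectomesenchyme, was the 1 gene called among 11 ectomesenchyme markers, and it fell by 0.66 on the log2 scale (limma-voom FDR = 0.00595). Of the 11, 10 had negative fold changes, with a median of -0.25, against 0.01 over all genes. To see whether the mesenchymal connexins moved with these markers from arch to arch, each arch was expressed as its deviation from the mean of its genotype. Over the 10 arches, the deviation of Gja1 and the mean deviation of the 11 markers gave Pearson's r = 0.88 (permutation p = 0.00111) and Spearman's rho = 0.88 (permutation p = 0.00146). For Gjc1, r was 0.84 (permutation p = 0.00271) and rho was 0.85 (permutation p = 0.00304). Adjusted over the 77 relations of members with marker lists and with each other that were computed, these became 0.0855 and 0.112 for Gja1 and 0.104 and 0.117 for Gjc1, so none passed 0.05. Leaving out the 2 arches farthest from the median of the markers gave r = 0.80 for Gja1 and r = 0.76 for Gjc1. Over the 8 arches other than wild-type arches 1 and 2, Gja1 gave r = 0.80 (permutation p = 0.0167) and rho = 0.79 (permutation p = 0.0279). For Gjc1 over these 8, r was 0.55 (permutation p = 0.156) and rho was 0.43 (permutation p = 0.297). These were lower than over all 10 arches, and the change was not tested. Adjusted over the 77, the values over these 8 were 0.257 and 0.429 for Gja1 and 0.515 and 0.718 for Gjc1. With 5 arches a genotype, no value within a genotype was computed. Of the 77 relations, 13 had an unadjusted permutation p of Pearson's r below 0.05 and 0 passed adjustment. For the other 11 of these 13, the adjusted values were at least 0.255 for r and 0.208 for rho. With the muscle and heart markers, r was -0.71 for Gja1 and -0.69 for Gjc1 (permutation p = 0.0227 and 0.0279), and rho was -0.75 and -0.58 (permutation p = 0.0174 and 0.0891). With the sensory neuron markers, r was -0.67 for Gjc1 and 0.66 for Gjb5 (permutation p = 0.0378 and 0.0375), and rho was -0.67 and 0.72 (permutation p = 0.0387 and 0.0230). With the epithelial markers, r was -0.65 for Gjb2 and -0.72 for Gjb5 (permutation p = 0.0470 and 0.0166), and rho was -0.59 and -0.71 (permutation p = 0.0805 and 0.0263). The vascular Gja4 and Gja5 ran the other way with the epithelial markers, at r = 0.67 and 0.71 (permutation p = 0.0294 and 0.0158) and rho = 0.77 and 0.71 (permutation p = 0.0126 and 0.0270). The remaining 3 were Gjb5 with glial precursor markers, Gjc1 with Gja1, and Gjb5 with Gja4.

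The relations depended on wild-type arches 1 and 2, the pair with few sensory neuron transcripts. Over the other 8 arches, 5 of the 13 still had an unadjusted permutation p of r below 0.05, and 1 changed sign. This was Gjc1 with the sensory neuron markers, which went from r = -0.67 to r = 0.45 (permutation p = 0.261) and rho = 0.31 (permutation p = 0.461). Gjb2 had the lowest permutation p of r among the 77 over these 8 arches. With the sensory neuron markers it gave r = 0.97 and rho = 0.95 (permutation p = 0.000750 and 0.000970), against r = 0.22 and rho = 0.21 over all 10 arches (permutation p = 0.524 and 0.559). With the glial precursor markers it gave r = 0.93 and rho = 0.90 (permutation p = 0.00116 and 0.00477), against r = 0.28 and rho = 0.28 over all 10 (permutation p = 0.432 and 0.425). With the epithelial markers it gave r = -0.93 and rho = -0.76 (permutation p = 0.00159 and 0.0366). Adjusted over the 77, these 3 reached 0.0408 for r, while for rho the adjusted values were 0.0747, 0.184 and 0.429. Leaving out the 2 farthest arches of the 8 gave r = 0.92, 0.86 and -0.79. This subset of arches was chosen after seeing the data.

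**Figure D2:**
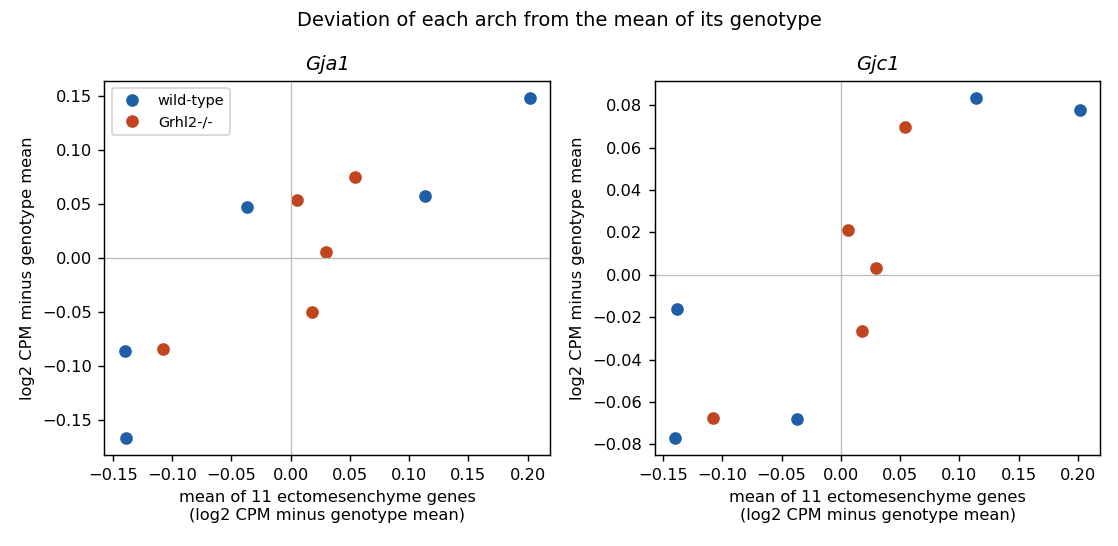
Each point is 1 arch (blue wild-type, orange Grhl2-/-), with the mean deviation of 11 ectomesenchyme genes on the x axis and the deviation of Gja1 (left) or Gjc1 (right) on the y axis, all in log2 CPM minus the mean of the genotype. Points run from lower left to upper right in both panels, with r = 0.88 for Gja1 and 0.84 for Gjc1, and neither passes adjustment over 77 relations.

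The vascular connexins were higher on average in Grhl2-/- arches, and neither passed the test. Gja4 was at 6.54, 8.84, 7.60, 4.94 and 6.75 CPM in wild-type arches 1 to 5 and at 8.06, 7.24, 7.96, 9.50 and 7.84 CPM in Grhl2-/- arches 1 to 5. Only Grhl2-/- arch 4 was above every wild-type arch. The log2 fold change of Gja4 was 0.25, with an interval of -0.06 to 0.55 (limma-voom FDR = 0.265). Without wild-type arch 4, the lowest, the estimate was 0.12 (FDR = 0.513). It was 0.38 (FDR = 0.163) with the sensory neuron markers as a covariate, and 0.34 (FDR = 0.276) without wild-type arches 1 and 2.

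Gja5 was at 12.2, 12.2, 10.3, 10.7 and 10.8 CPM in wild-type arches 1 to 5. It was at 16.1, 9.995, 16.2, 17.1 and 13.0 CPM in Grhl2-/- arches 1 to 5. Thus 4 Grhl2-/- arches were above every wild-type arch and 1, arch 2, was below every one. The means were 11.2 ± 0.875 and 14.5 ± 2.95 CPM, so the Grhl2-/- arches also varied more among themselves. The log2 fold change was 0.36 ± 0.14 (SE), with an interval of 0.05 to 0.66 (limma-voom FDR = 0.127). Leaving out Grhl2-/- arch 2 gave 0.47 (FDR = 0.0254), the lowest FDR among the fits that left out 1 arch. Without wild-type arches 1 and 2 it was 0.42 (FDR = 0.246).

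Other transcripts of vessels and heart were also higher on average in the Grhl2-/- arches. Fold changes were positive for 13 of 14 endothelial markers, of which none was called, and their summed level was 473 to 552 CPM in wild-type and 530 to 658 CPM in Grhl2-/- arches. Among 8 arterial markers, Hey1, a transcription factor downstream of Notch, was the 1 call and rose by 0.62 on the log2 scale (limma-voom FDR = 0.00354). The arterial sum was 405 to 452 CPM in wild-type and 449 to 540 CPM in Grhl2-/- arches. Here and below, these being bulk samples, fewer cells of a type and less RNA per cell cannot be told apart, nor can more of either.

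The vascular connexins were also set against single endothelial genes, with a result that differed between references. Pecam1 itself was higher in every Grhl2-/- arch than in every wild-type arch (log2 fold change 0.33, limma-voom FDR = 0.0257), and Cdh5 (VE-cadherin) differed by 0.11 (FDR = 0.113). The log2 ratio of Gja5 reads to Pecam1 reads differed by 0.01 and that of Gja4 by -0.08, with exact permutation p of 0.976 and 0.579. With Cdh5 as the reference, the differences were 0.24 for Gja5 and 0.14 for Gja4 (exact permutation p = 0.143 and 0.357). With the mean of the endothelial markers as a covariate in limma-voom, the log2 fold change of Gja4 was 0.04, and that of Gja5 was 0.45 (FDR = 0.232).

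Because Gja5 is also a heart gene, the muscle and heart list is given beside it. Its summed level ran from 9.45 to 15.8 CPM in wild-type arches and from 16.3 to 27.6 CPM in the others, with 0 of 7 tested genes called. Of the 7, 4 had positive and 3 negative log2 fold changes. The sarcomere genes Myh7 and Actc1 were at 1.29 against 5.82 CPM and 3.73 against 10.6 CPM (limma-voom FDR = 0.0191 and 0.0202). The muscle regulators Tcf21, Myod1 and Myf5 had log2 fold changes of -0.89, -0.47 and -0.02 (limma-voom FDR = 0.0689, 0.477 and 0.979). Of the atrial genes in the list, Myl7, a myosin light chain, had 18 to 41 reads in wild-type and 35 to 56 reads in Grhl2-/- arches (log2 fold change 0.35, limma-voom FDR = 0.256). Nppa, a natriuretic peptide gene, had 0 reads in every wild-type arch and 1 read over all Grhl2-/- arches. Tnnt2, cardiac troponin T, had at most 10 reads in any arch (log2 fold change 0.28, limma-voom FDR = 0.689). As deviations from the genotype means over the 10 arches, Gja5 and this list gave r = 0.47 and rho = 0.26 (permutation p = 0.166 and 0.471). Over the 8 arches other than wild-type arches 1 and 2, r was 0.82 and rho was 0.52 (permutation p = 0.0137 and 0.198). Adjusted over the 77 relations, these 8-arch values became 0.257 and 0.635. The part of these transcripts in the difference of Gja5 between genotypes was not tested.

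The epithelial connexins were rare, and none was called. Gjb2 and Gjb6 had the most negative estimates among the members and Gjb5 had an estimate near 0, with intervals that overlapped, and Gjb1 was hardly detected. Summed over the 4, the level was 3.38 to 6.36 CPM in wild-type and 2.21 to 3.88 CPM in Grhl2-/- arches, with overlap.

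Gjb2 was at 4.497, 2.19, 2.79, 3.27 and 2.95 CPM in wild-type arches 1 to 5, which is 61 to 99 reads. In Grhl2-/- arches 1 to 5 it was at 1.32, 2.01, 2.22, 1.28 and 2.20 CPM, which is 36 to 64 reads. In 3 Grhl2-/- arches it was below every wild-type arch, and the other 2 lay just above the lowest, wild-type arch 2. The log2 fold change was -0.78 ± 0.23 (SE), with an interval of -1.27 to -0.28 (limma-voom FDR = 0.0566). This corresponds to 0.583 times the wild-type level, with an interval of 0.414 to 0.821. DESeq2 gave -0.80 (FDR = 0.0152) and edgeR -0.79 (FDR = 0.04997). With the endothelial markers as a covariate it was -0.35 (limma-voom FDR = 0.509), and without wild-type arches 1 and 2 it was -0.78 (FDR = 0.114).

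Gjb6, the neighbour of Gjb2 on chromosome 14, had 22, 13, 4, 17 and 11 reads in wild-type arches 1 to 5 and 5, 2, 4, 10 and 4 reads in Grhl2-/- arches 1 to 5. The means were 0.534 ± 0.313 and 0.181 ± 0.105 CPM. Wild-type arch 3 was as low as the Grhl2-/- arches, of which arch 2 was under 3 reads. For Gjb6 the log2 fold change was -1.33, with a wide interval of -2.51 to -0.15 (limma-voom FDR = 0.135). With the endothelial markers as a covariate it was -0.65 (FDR = 0.624), and without wild-type arches 1 and 2 it was -0.98 (FDR = 0.371).

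Gjb5, a connexin of skin and trophoblast, was at 0.818, 0.719, 1.05, 1.24 and 1.09 CPM in wild-type and 1.03, 1.32, 1.45, 0.569 and 0.965 CPM in Grhl2-/- arches 1 to 5. The Grhl2-/- arches covered the whole wild-type range and extended beyond it at both ends. The log2 fold change was 0.07 with an interval of -0.51 to 0.65 (limma-voom FDR = 0.888), and it was negative in 6 of 21 alternative fits, at -0.15 (FDR = 0.824) without wild-type arches 1 and 2. Gjb1 (connexin 32), the connexin of liver and myelinating cells, had 4 reads over all wild-type arches and 6 over all Grhl2-/- arches, with at most 3 reads in any arch, so a difference was not detectable at this depth.

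**Figure D3:**
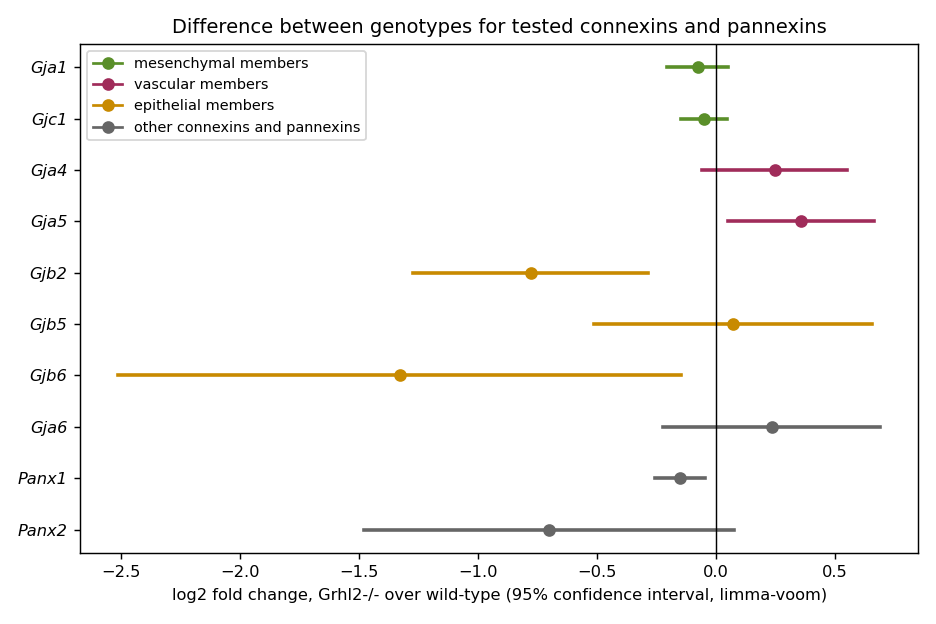
Points are log2 fold changes of Grhl2-/- over wild-type arches from limma-voom, and bars their 95% confidence intervals, with the vertical line at no difference. Intervals are narrow for Gja1 and Gjc1, widest for Gjb6, and lie wholly on 1 side of 0 for Gja5, Gjb2, Gjb6 and Panx1, none of which passes FDR 0.01.

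Epithelial marker genes of the same arches are given beside these connexins. Of 15 epithelial markers, 8 fell and 0 rose at FDR 0.01, and 13 had negative and 2 positive fold changes, with a median log2 fold change of -1.56. Epcam, a surface adhesion molecule of epithelia, went from 54.1 ± 6.98 to 9.80 ± 3.14 CPM (log2 fold change -2.51, limma-voom FDR = 1.04e-05). Cdh1 (E-cadherin) went from 44.2 ± 6.30 to 8.16 ± 2.45 CPM (log2 fold change -2.47, limma-voom FDR = 1.66e-05). The keratins Krt8, Krt18 and Krt19 of simple epithelia were not called, with log2 fold changes of -0.40, -0.07 and 0.02, nor was Krt14, a keratin of basal cells, at 0.33 (limma-voom FDR = 0.144). Other keratins fell with no overlap. Krt5, with at most 20 reads in any arch, was among the 8 called (log2 fold change -2.64, limma-voom FDR = 0.00556). Krt15 had a log2 fold change of -1.56 and was not called (limma-voom FDR = 0.0124).

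To set each connexin against an epithelial gene in the same arch, log2 ratios of reads were compared between genotypes. Reads per Epcam read were higher in Grhl2-/- arches by 1.72 for Gjb2, 2.59 for Gjb5 and 1.13 for Gjb6 on the log2 scale, with no overlap for Gjb2 and Gjb5. Since Epcam itself fell by 2.51 with no overlap, a gene that changed little stands apart in this ratio, so these values restate the fall of Epcam and are no test of the connexins. Per Krt8 read, the differences were -0.40 for Gjb2, 0.47 for Gjb5 and -0.99 for Gjb6, with exact permutation p of 0.437, 0.310 and 0.159.

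**Figure D4:**
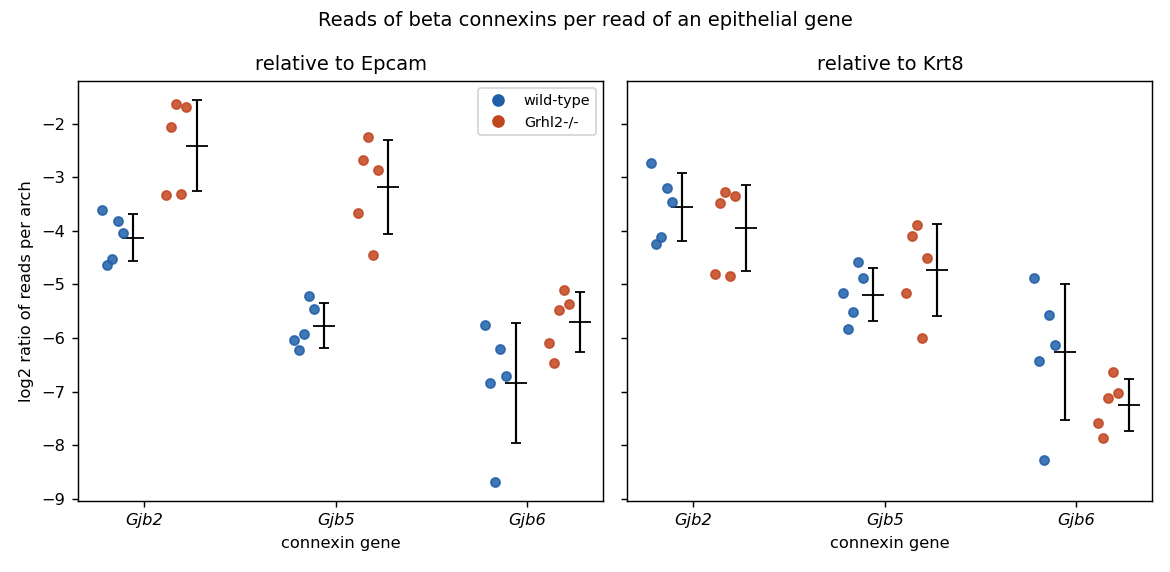
The y axis is the log2 ratio of reads of a beta connexin to reads of Epcam (left) or Krt8 (right) in the same arch, for 5 wild-type (blue) and 5 Grhl2-/- (orange) arches, with bars at mean ± SD. Relative to Epcam, which itself fell, the groups are wholly apart for Gjb2 and Gjb5, by 1.72 and 2.59, and relative to Krt8 they overlap for all 3 genes.

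The 3 classes were also set against each other within arches, through the ratios of all 21 pairs of tested members. Relative to Gja1, Gjb2 differed by -0.72 and Gjb6 by -1.303 on the log2 scale, and Gja4 and Gja5 by 0.32 and 0.42 (exact permutation p = 0.0238, 0.0556, 0.0556 and 0.0556). Relative to Gja5, Gjb2 differed by -1.14 and Gjb6 by -1.72 (exact permutation p = 0.0159 for both), but Gjb5 by -0.27 (exact permutation p = 0.524). Gjb5 relative to Gja4 differed by -0.17 (exact permutation p = 0.698). Within the epithelial class, Gjb5 relative to Gjb2 was higher in every Grhl2-/- arch than in every wild-type arch, by 0.87 (exact permutation p = 0.00794, the smallest that 5 against 5 arches can give), and Gjb6 relative to Gjb5 differed by -1.46, with overlap (exact permutation p = 0.103). Within the mesenchymal class, the ratio of Gjc1 to Gja1 differed by 0.03 (exact permutation p = 0.548).

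Together with 14 ratios to marker genes, 35 ratios were tested, and they share arches and genes. Of the 21 member pairs 8, and of the 14 marker ratios 6, had an unadjusted exact permutation p below 0.05, and 3 of these 6 are the ratios to Epcam, which carry its own fall. The rest of the 6 set Gja1 or Gjc1 against Twist1 or Prrx1, whose own log2 fold changes were -0.34 and -0.25 (limma-voom FDR = 0.0189 and 0.116). After Benjamini-Hochberg adjustment over the 35, 0 passed 0.05. The lowest adjusted value was 0.0694, reached by Gjb5 to Gjb2 and by the 2 ratios to Epcam that stood apart. It was also reached by Gjc1 to Twist1, which was higher by 0.29. Twist1 itself fell with no overlap, so that ratio also carries the fall of its reference. All of these ratios had the smallest p possible, so the adjusted value of Gjb5 to Gjb2 depends on the Epcam and Twist1 ratios being counted. Without wild-type arches 1 and 2, Gjb5 to Gjb2 differed by 0.63, with no overlap and an exact permutation p of 0.0357, and the Epcam ratios by 1.72 for Gjb2 and 2.35 for Gjb5. The smallest p that 3 against 5 arches can give is 0.0179, and adjusted over the 35 the value for Gjb5 to Gjb2 became 0.156.

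To compare genes with each other, levels were divided by the length of their exons. In wild-type arches Gja1 led at 38.6 ± 3.32 CPM per kb (SD, n = 5), followed by Gjc1 at 21.3 ± 1.14, and no arch overlapped between them. Among the other members, Gja4 at 4.12 ± 0.852 CPM per kb came next and overlapped neither Gjc1 nor Gja5. Gja5 at 1.95 ± 0.152 and Gjb2 at 1.305 ± 0.355 overlapped each other, at a lower level. Gjb5 at 0.570 ± 0.122 stood apart from Gjb2 and Gjb6. Gjb6 was lowest of these, at 0.200 ± 0.117. With the principal transcript as the length, the order of these 7 members was the same, but Gja1 was at 124, Gjc1 at 46.1 and Gja5 at 3.61 CPM per kb. With that length Gja5 overlapped Gja4 and no longer Gjb2, and Gjb5 overlapped Gjb6.

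**Figure D5:**
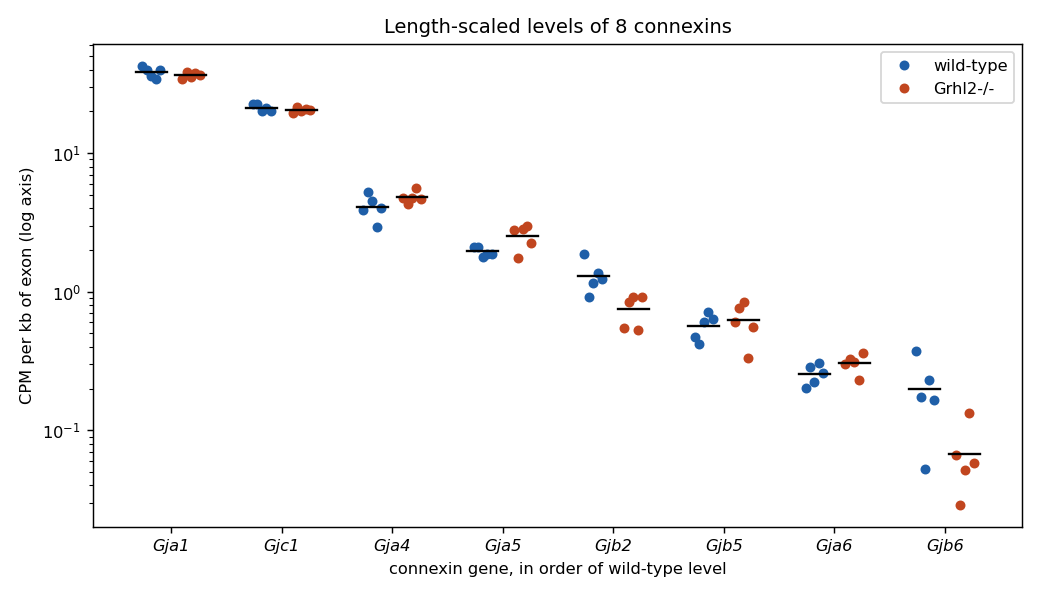
The y axis is CPM per kb of exon on a log scale, the x axis 8 connexins (7 members and Gja6) in order of their wild-type mean, points single arches (blue wild-type, orange Grhl2-/-) and black lines group means. Wild-type means run from 38.6 for Gja1 to 0.200 for Gjb6.

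As a share of all connexin transcripts per kb, Gja1 made 53.0 ± 1.71% in wild-type and 51.5 ± 0.862% in Grhl2-/- arches, and Gjc1 made 29.3 ± 1.27% and 29.1 ± 0.365%. The vascular Gja4 and Gja5 made 5.64 ± 1.02% and 2.68 ± 0.0939% in wild-type arches. In Grhl2-/- arches they made 6.82 ± 0.679% and 3.57 ± 0.773%. Gjb2 made 1.80 ± 0.455% and 1.06 ± 0.272%, and Gjb6 0.271 ± 0.151% and 0.0955 ± 0.0534%. The connexin transcripts of these whole arches were therefore mostly those of the mesenchymal class in both genotypes.

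Of the 12 other connexin genes, 3 had enough reads to be tested and none was called at FDR 0.01. Gja6 was at 0.516 and 0.617 CPM (limma-voom FDR = 0.481). The 9 not tested had at most 7 reads in any arch.

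Pannexins, relatives in function that form channels in a single membrane, were also not called. Panx1 had means of 57.2 ± 1.76 CPM in wild-type arches and 51.5 ± 3.25 CPM in those without Grhl2, and 4 Grhl2-/- arches were below every wild-type arch (log2 fold change -0.15, limma-voom FDR = 0.0760). Panx2 was at 0.558 and 0.360 CPM (FDR = 0.215).

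Connexins are held at the membrane and turned over by partner proteins, and 0 of 14 such genes were called. Tjp1 (ZO-1), the scaffold that binds the tail of connexin 43, was at 270.4 ± 12.5 and 303 ± 22.2 CPM (limma-voom FDR = 0.0832). Cav1 (caveolin 1), a membrane coat protein abundant in endothelium, was higher in every Grhl2-/- arch, at 7.74 ± 0.524 and 18.7 ± 9.06 CPM (limma-voom FDR = 0.0577). The ubiquitin ligase Nedd4, which acts on connexin 43, differed by 0.04 on the log2 scale (FDR = 0.339).

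Among 11 transcription factors known to act on connexin promoters, 3 fell and 0 rose. Tbx2 and Tbx3, repressors of Gja1 and Gja5 in the heart, went from 199 ± 25.5 to 131 ± 7.36 CPM and from 148 ± 14.2 to 109 ± 8.05 CPM (limma-voom FDR = 0.00136 and 0.00426). Tfap2c, an epithelial and neural crest factor, went from 19.3 ± 2.89 to 9.66 ± 1.40 CPM (limma-voom FDR = 0.000791). The heart factor Nkx2-5, an activator of Gja5, was at 0.160 and 0.759 CPM (limma-voom FDR = 0.0148). The median over the 11 was 0.15, against 0.01 over all genes.

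The promoters of Gjb2 and Gjb6 are shown because these neighbouring epithelial genes had the most negative estimates. Each sequence is the 250 bases before the start site from RefSeq on GRCm38.p6, minus strand, read 5′ to 3′, with chr14:57104703-57104952 for Gjb2 and chr14:57133612-57133861 for Gjb6. Capitals mark a match to AACCNGTT, a loosened form of AACCGGTT, the site that GRHL proteins bind.
Gjb2: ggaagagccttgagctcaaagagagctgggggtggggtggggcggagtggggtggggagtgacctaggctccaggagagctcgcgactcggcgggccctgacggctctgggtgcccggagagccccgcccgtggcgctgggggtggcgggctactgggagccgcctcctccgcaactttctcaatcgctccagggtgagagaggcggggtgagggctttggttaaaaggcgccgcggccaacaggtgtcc
Gjb6: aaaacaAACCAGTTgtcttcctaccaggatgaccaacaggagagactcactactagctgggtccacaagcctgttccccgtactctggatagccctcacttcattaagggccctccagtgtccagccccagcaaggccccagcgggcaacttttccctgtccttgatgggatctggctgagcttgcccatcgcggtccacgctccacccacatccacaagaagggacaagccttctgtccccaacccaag
The search covered both strands from 250 bases before to 50 bases after the start site in 16 promoters of 12 connexin genes, among them 10 promoters of 7 members. AACCGGTT was in none of the 16 and in 0.146% of all 32851 promoters. AACCNGTT was in the promoter of Gjb6 alone, from base -244, and in 2.09% of all promoters. A match is a description of the letters, and its absence says only that they are not in this window.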

How the data were processed

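RNA of 10 whole arches was sequenced as stranded, ribosome-depleted single-end reads. Per the labels and methods, STAR alignments to GRCm38 were summarised with featureCounts, and the authors deposited raw counts per gene without normalization. Their separate table of fold changes and FDR values was not used. Library sizes were scaled by TMM, which trims extreme genes before scaling. Genes had to reach 10 counts in 1 arch or more, which left 14561 for limma-voom (limma 3.58.1, edgeR 4.0.16, R 4.3.3). The model held genotype alone, FDR values are Benjamini-Hochberg adjusted over all genes tested, and genes were called at FDR below 0.01. Groups came from the labels' genotype. Log2 ratios per arch used a prior count of 0.5 and two-sided exact permutation tests over 252 assignments of arches (scipy 1.17.1), and correlations used 100000 permutations. Coding sequences were aligned with Biopython 1.88. Exon lengths and coordinates came from GENCODE M21. The alternative fits used DESeq2 1.42.0, edgeR's quasi-likelihood test, other scalings, filters and weights, a block, 2 covariates and fewer arches. The methods were tested on simulated data. Genes named are the members, the other connexins and pannexins, Grhl2, called genes of fixed lists and the markers needed beside a result. The members and lists were chosen with earlier results of these data known. No pair of arches of a genotype agreed within sampling noise, with a chi-square per gene of 7.05 to 25.5 over 20 pairs. Nothing states that the arches of a genotype came from separate litters, so p-values measure only the spread between these arches. Protein sequences were not analysed here, and the values of some genes of the lists are not reported here.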

Additional observations from a re-analysis of the deposited data

How the results depend on the processing

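No connexin member was called under 21 of the 22 alternatives. The exception was the label number as a replicate block, under which 1 member was called higher, Gja5 (log2 fold change 0.57, FDR = 0.00922). The numbers are not shown to pair the arches: deviations of the 5 same-numbered pairs correlated at 0.11 on average, from -0.24 to 0.42, with 3 of 5 over 0.1, and at -0.03 over the other 20 pairs, and 4 of 8 arches with a shared number correlated best with their own. Over all genes, 158 were lower and 128 higher. The counts were 69 lower and 60 higher under the replicate block, 555 and 520 under DESeq2, 564 and 559 at FDR below 0.05, and 77 and 25 with the endothelial covariate. Quality weights gave 204 higher, the sensory neuron covariate 58 higher, and leaving out wild-type arches 1 and 2, chosen after seeing the data, 90 lower and 19 higher. With 1 arch left out at a time, 110 to 249 were lower and 42 to 143 higher, the 249 without Grhl2-/- arch 1 and the 42 without wild-type arch 5. No called direction reversed. The log2 ratio of Gjb5 to Gjb2 differed by 0.67 to 0.97 with 1 arch left out, and by 0.85 with a prior count of 2. The depth limits Gjb1 and Gjb6, with few reads per arch.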
